A study of Drosophila melanogaster with 6 samples.

Results

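Glutathione is the main small thiol of animal cells, and flies keep it under the control of a short set of genes. The 7 genes described here make glutathione (Gclc, Gclm), reduce peroxides (PHGPx), repair oxidised methionine (Eip71CD), or sense oxidants and switch the response on (Keap1, cnc, maf-S). They were taken by name, by a rule that uses no measured value but was written with earlier results of these data known, from the probe sets of an Affymetrix Drosophila Genome 2.0 array, an array that reads each transcript with several short oligonucleotides. Each of the 7 had a probe set that the annotation gives to no other gene, and cnc had 2, which makes 8 member probe sets out of 18769 tested and 7 genes out of 11983 measured in this way. The current annotation lists PHGPx as Gtpx and Eip71CD as MsrA. By the gene table of the Release 6 assembly, Gclc lies on chromosome X, PHGPx and Eip71CD on 3L, Gclm, Keap1 and cnc on 3R, and maf-S on 2R.

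Whole adult flies of the da-GAL4xUAS-AMP cross were compared with adult flies of the UAS-AMP stock that had not been crossed to the driver. Both groups carried the UAS transgene for an antimicrobial peptide, which the labels do not name, and the cross also carried da-GAL4, a driver built on the promoter of daughterless, a gene expressed in most tissues. Each group had 3 samples, each of 25 males and 25 females on 1 array, and the labels give no age beyond adult. The cross differed from the control by the driver and by the chromosomes of the driver stock as well as by the driven peptide, and flies with the driver alone were not analysed here. Whether the samples of a group were reared separately is not stated, so the p-values below rest on a spread between samples that may be technical only. The title of the series concerns tolerance to oxidants, and the question asked here is whether the transcripts of the glutathione and Keap1-cnc genes differed between the groups without any oxidant treatment named in the labels.

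As background, glutamate-cysteine ligase carries out the rate-limiting step of glutathione synthesis, with a catalytic subunit encoded by Gclc and a modifier subunit encoded by Gclm. The transcription factor cnc is the fly homologue of mammalian Nrf2. Keap1 binds it and, with the ubiquitin ligase scaffold Cul3, sends it for degradation, and oxidants or electrophiles release it to bind DNA as a dimer with the small Maf protein maf-S. Much of this control acts on the proteins, which these arrays do not read.

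None of the 7 genes passed the test between the cross and the control. In limma with 1 constant prior variance for all probe sets, and p-values adjusted by Benjamini-Hochberg over the 18769 of them, the adjusted p of the 7 genes ran from 0.486 for maf-S to almost 1 for cnc, and 0 of the 7 passed 0.05, as did 0% of all genes. At an unadjusted p under 0.05 the count was also 0 of 7, against 10.5% of all genes (3% higher and 7.51% lower in the cross). With a limma prior variance that follows the signal (trended and robust), 0.868% of all genes passed the adjusted threshold and again 0 of the 7 did. The median log2 difference, cross minus control, was 0.0001 over the 7 genes and -0.0019 over all 11983 genes, and the first was -0.13 with the mean of both cnc probe sets and -0.09 without control replicate 1. The difference was above 0 in 4 of the 7 genes and below 0 in 3, while 49.8% of all genes were above 0 and 50.2% below.

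**Figure D1:**
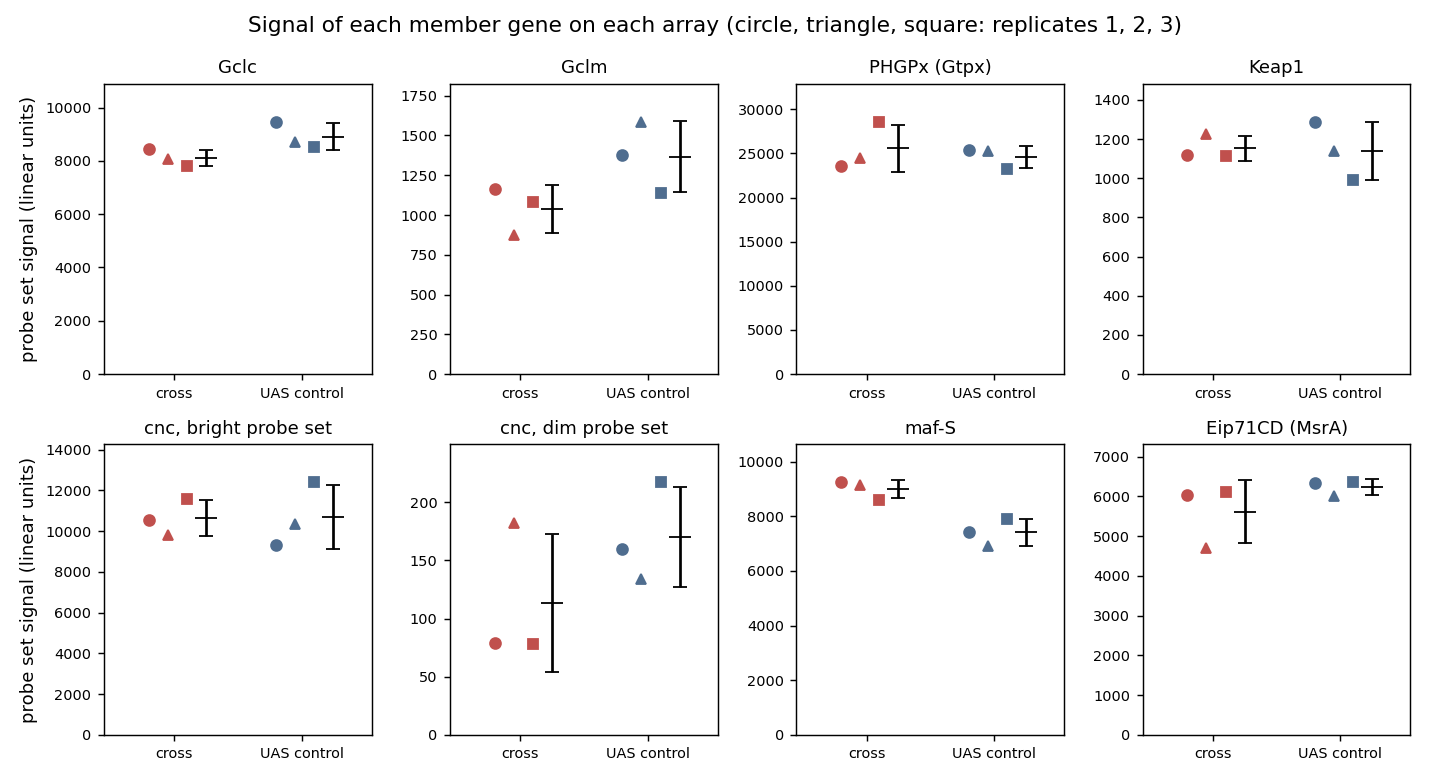
Probe set signal in linear units, on an axis from 0, for each member probe set. Red marks are the 3 arrays of the da-GAL4xUAS-AMP cross and blue marks the 3 arrays of the UAS control, with circle, triangle and square for replicates 1, 2 and 3, and the black bar is the group mean with its SD. The groups lie apart for Gclc, lower in the cross, and for maf-S, higher in the cross, and overlap in the other panels.

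Of the synthesis genes, the catalytic subunit gene Gclc had signals of 8442, 8069 and 7824 in the cross and 9475, 8700 and 8522 in the control. All 3 arrays of the cross lay below all 3 control arrays, although the highest of the cross, 8442, nearly reached the lowest of the control, 8522. The means were 8112 ± 311 in the cross and 8899 ± 507 in the control (SD, n = 3 each), and the log2 difference was -0.13 (95% interval -0.44 to 0.17), so the interval holds ratios of 0.739 to 1.13.

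The modifier subunit gene Gclm had the widest log2 difference between groups, in either direction, among the probe sets that stand for a gene, which where a gene has several is the brightest. Its signals were 1166, 873 and 1082 in the cross and 1377, 1588 and 1138 in the control. The top array of the cross exceeded the bottom array of the control, so the groups overlapped. The mean in the cross, 1041 ± 151, was 76.1% of the mean in the control, 1367 ± 225 (SD, n = 3 each). The log2 difference was -0.39 (95% interval -0.88 to 0.10, limma unadjusted p = 0.0951, adjusted p = 0.533). This interval holds ratios of 0.544 to 1.07. Both subunit genes were thus lower in mean in the cross, and both 95% intervals included 0. In the trended fit the unadjusted p of Gclm was 0.076 with all arrays and 0.0326 without control replicate 3, where its adjusted p was 0.257.

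PHGPx encodes a glutathione peroxidase of the phospholipid hydroperoxide type, which in flies draws on thioredoxin. Its probe set read 23611, 24529 and 28621 in the cross and 25353, 25254 and 23222 in the control. The groups overlapped, and 1 array of the cross, replicate 3, stood above the rest. The log2 difference was 0.05 (95% interval -0.29 to 0.40), and without that array it was -0.03.

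Eip71CD encodes methionine sulfoxide reductase A, which repairs oxidised methionine in proteins, and its older name records that ecdysone induces it. Signals were 6047, 4697 and 6101 in the cross and 6351, 6008 and 6357 in the control. Replicate 2 of the cross was low while the other arrays of the cross fell within the control range. The log2 difference was -0.16 (95% interval -0.55 to 0.23) with all arrays and -0.04 without replicate 2 of the cross.

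Among the regulators, Keap1 had signals of 1116, 1228 and 1112 in the cross and 1290, 1137 and 993 in the control. The range of the cross lay inside that of the control. The means were 1152 ± 66.0 in the cross and 1140 ± 148 in the control (SD, n = 3 each), with a log2 difference of 0.02 (95% interval -0.35 to 0.40).

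The brighter cnc probe set read 10556, 9800 and 11587 in the cross and 9327, 10360 and 12402 in the control. Here too the cross lay within the control range, the means were 10647 ± 897 in the cross and 10696 ± 1564 in the control (SD, n = 3 each), and the 95% interval of the log2 difference was -0.41 to 0.41. A dimmer cnc probe set gave 79.3, 182 and 78.4 in the cross and 160, 134 and 217 in the control. It stood above the background guide, the 95th percentile of the Bacillus control probe sets (90.3 to 123 over the arrays), on 1 array of the cross and on all 3 control arrays. The groups overlapped, and its log2 difference was -0.67 (95% interval -1.67 to 0.32). The annotation does not say which cnc transcripts each probe set reads, so the long isoform that answers to oxidants was not read apart from the others.

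maf-S had the smallest p of the 7. Its signals were 9247, 9153 and 8615 in the cross and 7423, 6922 and 7893 in the control. Every array of the cross lay above every control array, with means of 9005 ± 341 in the cross and 7413 ± 486 in the control (SD, n = 3 each), 1.22-fold apart. The log2 difference was 0.28 (95% interval -0.03 to 0.59, unadjusted p = 0.0666, adjusted p = 0.486 in limma). In the trended fit the interval was 0.05 to 0.51 and the unadjusted p 0.0223, but the adjusted p was 0.301, and over 13 alternatives it ran from 0.301 to 0.813. With 3 arrays a group, an exact permutation test of a single gene cannot give a 2-sided p below 0.1.

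Non-overlapping groups were thus seen in 2 of the 7 genes, maf-S above and Gclc below, and 19.8% of all genes had such groups, 6.72% with the cross above and 13.1% with the cross below. A count of 2 among 7 is near that share, and nothing particular to these genes is read from it.

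**Figure D2:**
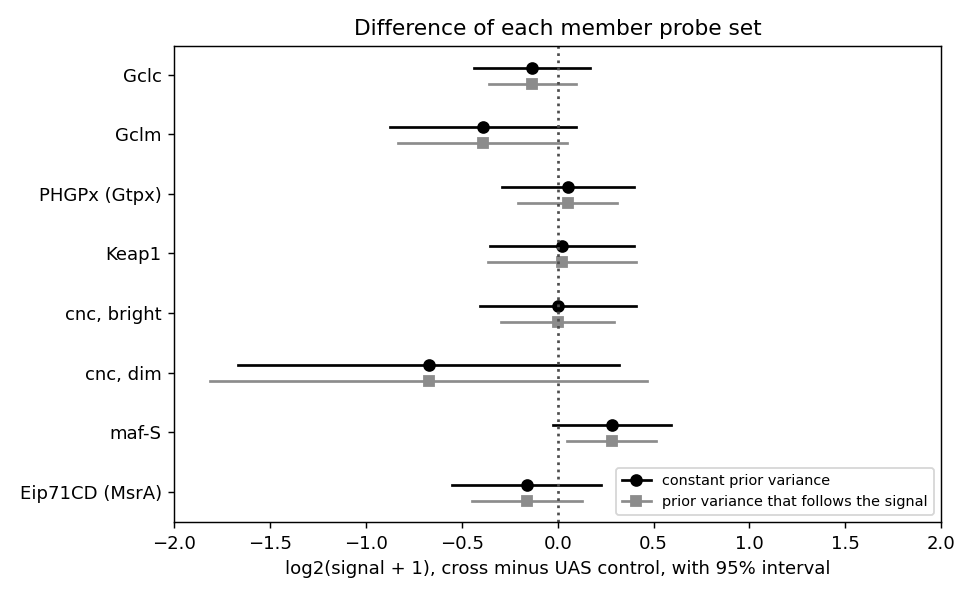
Log2(signal + 1) of the cross minus the UAS control for each member probe set, with its 95% interval, from limma with a constant prior variance (black circles) and with a prior variance that follows the signal (grey squares). The intervals cross 0 except that of maf-S in the second fit, 0.05 to 0.51, and the dim cnc probe set has the widest.

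The spread within groups differed between members. The residual SD on the log2 scale was 0.07 for Gclc, 0.08 for maf-S, 0.12 for PHGPx, 0.15 for Eip71CD and 0.17 for the brighter cnc probe set, where the median of the brightest 33.3% of probe sets was 0.16. It was 0.14 for Keap1 and 0.23 for Gclm, where the median of the middle 33.3% was 0.28. The dimmer cnc probe set, in the dimmest 33.3%, had 0.55 against a median of 0.94.

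Keap1 and the brighter cnc probe set, for the inhibitor and its target, had opposite orders over the arrays. From the array with the lowest Keap1 signal to that with the highest, the signal of this cnc probe set fell at each step, within both groups and over all 6 arrays. The dimmer cnc probe set did not follow that order, at 217, 78.4, 79.3, 134, 182 and 160 over the same arrays. For the brighter probe set, Pearson's r of the log2 signals with Keap1 was -0.95 (exact permutation p = 0.00694) and Spearman's rho was -1 (exact permutation p = 0.00278, the smallest that 6 arrays allow). This was 1 of 21 pairs of the 7 genes, and adjusted over them the p-values were 0.146 for r and 0.0583 for rho, past no threshold of 0.05. The order of Keap1 includes close signals, 1112, 1116 and 1137, beside a residual SD of 0.14 on the log2 scale. Other scalings are given for r only, not for rho. Without the 2 arrays farthest from the median of Keap1, r was -0.81. The 5987 genes at or above the median mean signal, with the 7 genes left out, served as a background. Of them, 8 had an r with the brighter cnc probe set at or below that of Keap1, or 0.134%, and 15 had one at least as far from 0 in either direction, or 0.251%. This background was not matched to the signal of Keap1, which lay at the 54.8th percentile of probe sets by mean log2 signal. Keap1 itself lay below the gene median used as the cut, so every gene of this background was brighter. The shares are thus of genes in another signal range. The r of Keap1 and cnc depended on the scaling, at -0.83 with quantile scaling and -0.39 with arrays centred on their medians. The median signals of the arrays were 822, 903 and 767 in the cross and 865, 847 and 863 in the control, and their part in the relation was not tested beyond that centring. Gclm and maf-S had the next strongest r of the 21 pairs, -0.85 (Spearman's rho -0.66, exact permutation p = 0.0264 for r and 0.175 for rho, adjusted p = 0.277 and 0.882), and r was -0.66 without the 2 arrays farthest from the median of Gclm. The group means of these genes lie on opposite sides, and 3 arrays a group are too few for a value within groups.

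**Figure D3:**
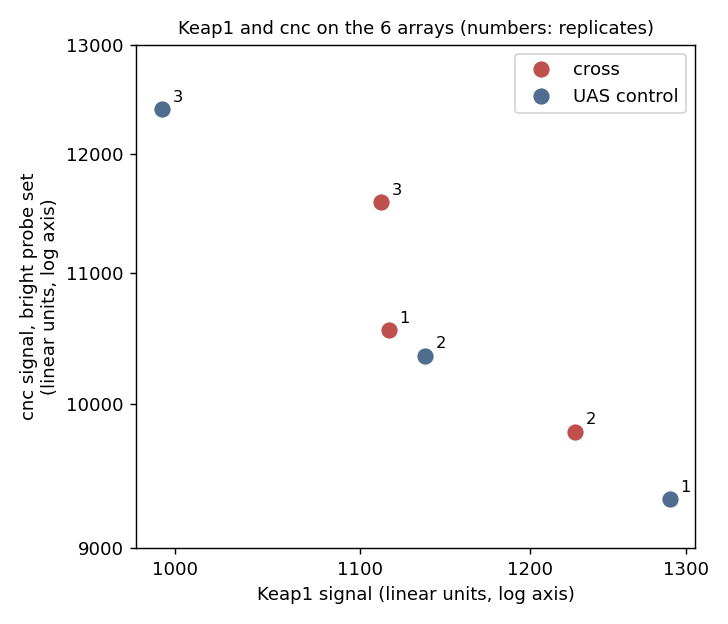
Keap1 signal against the signal of the brighter cnc probe set on each array, in linear units on log axes. Red points are the arrays of the cross and blue points those of the UAS control, with the replicate number beside each, and the 2 groups share 1 descending line with r = -0.95.

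The genes whose log2 signal most resembled that of maf-S over the 6 arrays, among the 5987 genes at or above the median mean signal, were CG7945 (Pearson's r 0.99), CG10874 (0.99) and CG18343 (0.99). With 6 arrays and this many genes such values are a description only. Each of these genes was higher in the cross on every array. CG18343 had 5646 ± 348 in the cross and 3169 ± 437 in the control (SD, n = 3 each) and rose 1.79-fold by the trended prior (adjusted p = 0.0262, range 0.0262 to 0.488 over its 13 alternatives). That call held without control replicate 3 and was lost when any other single array was left out, with adjusted p up to 0.195.

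The other genes of glutathione supply were no more uniform than the 7. This list was drawn up for cysteine supply, NADPH, glutaredoxins and export, and 13 of its 17 genes were measured. Gss1, Gss2, Zw and Pgd were not, as no probe set was annotated to them alone under those names. Of the 13, 6 were higher and 7 lower in the cross, with a median log2 difference of -0.02, which became 0.03 with arrays centred on their medians, and 0 passed in either fit. Grx1, a glutaredoxin that uses glutathione to reduce disulphides, had 7042, 6569 and 7943 in the cross and 10207, 10746 and 10234 in the control. Its groups were apart, 1.45-fold lower in the cross, with an adjusted p of 0.268 with the constant prior and 0.0695 in the trended fit (0.0695 to 0.596 over 13 alternatives). Gnmt, a glycine methyltransferase that consumes S-adenosylmethionine, was at 1153 ± 195 in the cross and 2007 ± 645 in the control (SD, n = 3 each, adjusted p = 0.450). The thioredoxin reductase gene Trxr1, which in flies also keeps glutathione reduced because they lack a glutathione reductase, had a log2 difference of -0.02.

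Genes reported to respond to cnc in flies were listed as a readout of the regulators, together with partners of Keap1, which are no such readout. Of 14 listed, 10 were measured, 8 higher and 2 lower in the cross, with a median log2 difference of 0.22, which stayed above 0 over 13 alternatives (0.12 without control replicate 3, the lowest, to 0.27). The counts and the median mix both kinds of gene, and the partners Cul3 and Roc1a (log2 difference 0.08) are among the higher ones. Cyp12d1-p, Jheh1, Prx2540-1 and fs(1)h were not measured. Cyp6a8, a cytochrome P450, read 783, 1060 and 1170 in the cross and 2592, 2751 and 2364 in the control. It fell 2.59-fold in the trended fit (adjusted p = 0.0158, against 0.135 with the constant prior and 0.0158 to 0.461 over 13 alternatives). In the trended fit the call was lost without overexpression replicate 1 (adjusted p = 0.0737), control replicate 1 (adjusted p = 0.136) or control replicate 2 (adjusted p = 0.106). Cyp6a2, also a cytochrome P450, lay the other way, at 5693, 5938 and 4581 in the cross and 3312, 4367 and 4089 in the control, without passing (adjusted p = 0.441). GstD1, the glutathione S-transferase whose regulatory sequence is used as a reporter of cnc activity, had 53405, 54065 and 60387 in the cross and 46829, 44950 and 50517 in the control. Its groups were apart and 1.18-fold separated, and it did not pass (adjusted p = 0.564). Of the other GstD genes listed, GstD2, GstD7 and GstD10 were higher (log2 differences 0.28, 0.37 and 0.26) and GstD5 was lower (-0.40). Their groups overlapped and none passed. Members of the GstD family are similar in sequence, so their probe sets may read one another. Keap1's partner Cul3 had a log2 difference of 0.20 and ref(2)P, the fly homologue of p62, one of 0.07, and both sets of groups overlapped.

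**Figure D4:**
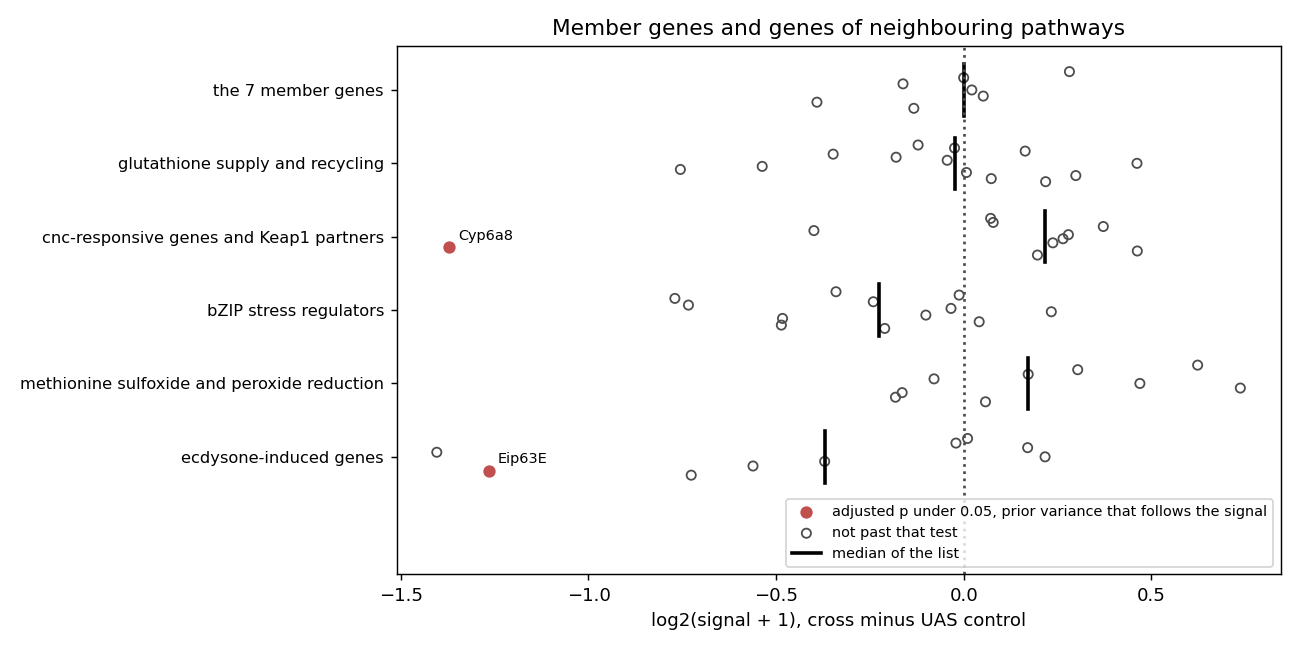
Log2(signal + 1) of the cross minus the UAS control for the 7 member genes and for each measured gene of the 5 neighbouring lists, 1 mark per gene, with a black bar at the median of each list. Filled red marks passed an adjusted p of 0.05 in the fit with a prior variance that follows the signal, and these are Cyp6a8 and Eip63E, both lower in the cross.

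Other basic leucine zipper regulators, the protein family of cnc and maf-S, were lower in 10 of 12 measured genes of 13 listed, with a median log2 difference of -0.23 (-0.28 to -0.16 over 13 alternatives) and 0 past either test. Atf6, a regulator of the response to unfolded proteins, had 3043, 2689 and 3072 in the cross and 4076, 4150 and 4083 in the control. It was 1.40-fold lower with groups apart and did not pass (adjusted p = 0.281, 0.115 in the trended fit and 0.115 to 0.629 over 13 alternatives). Pdp1, a regulator of the circadian clock, was 1.40-fold lower (adjusted p = 0.399). maf-S lay on the opposite side of 0 from most of these genes, and the difference between it and them was not tested.

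Beside PHGPx and Eip71CD, the enzymes that reduce peroxides or methionine sulfoxide had 6 of 9 measured genes higher in the cross (14 listed), with a median log2 difference of 0.17 (0.08 without overexpression replicate 2 and 0.06 with probe sets averaged per gene) and 0 past either test. Prx2, Prx4, Prx5, Prx6b and Sod1 were not measured. SelR, the methionine sulfoxide reductase that acts on the stereoisomer Eip71CD does not reduce, had 10500, 12472 and 12903 in the cross and 9766, 9347 and 6967 in the control. Its groups were apart and 1.38-fold separated, on the opposite side from Eip71CD, without passing (adjusted p = 0.454). The female germline thioredoxin gene dhd was 1.54-fold higher (adjusted p = 0.334) and the peroxiredoxin gene Prx6c 1.67-fold higher (adjusted p = 0.429). In whole flies a difference in the number of cells of a type and a difference in RNA per cell cannot be told apart.

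Since Eip71CD takes its name from ecdysone, 11 ecdysone-linked genes were listed, of which 9 were measured, 3 higher and 6 lower in the cross, with a median log2 difference of -0.37 (-0.24 without control replicate 2). Eip74EF and Eip75B were not measured. Eip63E, a cyclin-dependent kinase gene, read 2599, 2890 and 3515 in the cross and 6697, 7855 and 6974 in the control. It fell 2.40-fold in the trended fit (adjusted p = 0.00687, against 0.135 with the constant prior and 0.00687 to 0.461 over 13 alternatives). Eip63E also passed with the constant prior and the dimmest 33.3% of probe sets left out (limma adjusted p = 0.0373). In the trended fit the call was lost without overexpression replicate 1 (adjusted p = 0.0645), control replicate 1 (adjusted p = 0.0648) or control replicate 2 (adjusted p = 0.0547). The nuclear receptor gene Hr4 had 129, 164 and 132 in the cross and 307, 383 and 448 in the control, with an adjusted p of 0.135 with the constant prior, 0.109 in the trended fit and 0.0373 to 0.461 over 13 alternatives, the lowest after removal of the dimmest 33.3% of probe sets. The log2 difference of Hr4 was -1.40 by its brightest probe set and -0.80 with the mean of its probe sets (limma adjusted p = 0.396). Eip71CD itself had the smaller log2 difference given above.

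Markers of tissues within the fly also moved between the groups and between arrays, and their part in the values above was not tested. Of male reproductive tract genes, 16 of 17 were higher in the cross, with summed signals of 285580 to 466604 in the cross and 230986 to 311911 in the control. The highest sum was on replicate 2 of the cross, the array on which Eip71CD and Gclm were lowest, and the median log2 difference of this list was 0.30 with that array and 0.06 without it. Of egg and yolk genes 12 of 15 were lower (sums of 489809 to 900549 in the cross and 613002 to 848015 in the control). Of haemocyte and fat body genes 11 of 12 were lower (81708 to 97602 in the cross and 90769 to 115595 in the control), and of midgut genes 9 of 9 (305545 to 445945 in the cross and 407747 to 483538 in the control). With the constant prior over all probe sets 0 of these markers passed, and in the trended fit 3 did. The digestive protease gene Jon65Aii fell 2.83-fold, at 8195 ± 1745 in the cross and 22989 ± 3032 in the control (SD, n = 3 each, limma adjusted p = 0.00687 and 0.00687 to 0.461 over 13 alternatives). The lysozyme gene LysX fell 4.73-fold, at 207 ± 87.9 in the cross and 952 ± 225 in the control (limma adjusted p = 0.0236 and 0.0236 to 0.461). The ejaculatory duct peptide gene Dup99B rose 2.09-fold, at 34245 ± 7713 in the cross and 16225 ± 2340 in the control (limma adjusted p = 0.0322 and 0.0322 to 0.499). With each of the 6 arrays left out in turn from the trended fit, Jon65Aii passed in 4 cases, lost without overexpression replicate 1 or control replicate 1 (adjusted p = 0.0718 and 0.0735). LysX passed in 2 cases, those without overexpression replicate 2 or 3, and Dup99B in 1, that without overexpression replicate 2, with adjusted p up to 0.179 for LysX and 0.168 for Dup99B. The chorion gene Cp18 had 2252, 3231 and 21902 in the cross and 29711, 28476 and 27212 in the control, with replicate 3 of the cross far above the other arrays of its group, and did not pass (log2 difference -2.39, adjusted p = 0.414). The brightest markers by mean log2 signal had log2 differences nearer 0, which were 0.17 for Acp53Ea, 0.22 for Acp36DE, 0.07 for Yp1, 0.03 for Yp3, -0.06 for apolpp, -0.31 for Col4a1, -0.06 for alphaTry and -0.07 for betaTry. No listed marker lay below the background guide on all arrays.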

How the data were processed

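Total RNA (2 ug) of 6 samples of whole flies was labelled with biotin for the arrays, per the labels' protocols. The deposited values are probe set intensities on a linear scale. The summarising software is not given in the sources used here. After removal of the highest and lowest 2% of signals, each array had a mean of 2500.1, so the authors set a shared scale before deposit. Control probe sets (183 of 18952) were left out. Of the rest, 13647 had 1 gene symbol, 402 had several and 4720 had none or were not listed. Current names matched for 13544. The probe set with the highest mean log2 signal stood for a gene.

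Signals were converted to log2(signal + 1), a scale that understates changes of low signals, and fitted in R 4.3.3 by lmFit and eBayes of limma 3.58.1, 2-sided, with Benjamini-Hochberg adjustment over all probe sets. The fit was tested on simulated data. Background was read from 27 control probe sets. The number of arrays, 6, limited the precision. Members, gene lists and tests were chosen with earlier results of these data known. Named genes were all members, up to 2 of each neighbouring list with the smallest p, the 3 genes most like the member with the smallest p, and the 2 brightest of each marker list by mean log2 signal. SelR, GstD1, GstD2, GstD5, GstD7, GstD10, Trxr1, Cul3, Roc1a, ref(2)P, Jon65Aii, LysX, Dup99B and Cp18 were added after their values were seen. Alternatives covered scaling, pseudocount (16), dim probe sets, prior variance, replicate block, probe set averaging and each array left out. The Keap1 and cnc relation, its scalings, list medians, values of named genes that are not members under these settings, and the trended fit without each array were added after seeing the data.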

Additional observations from a re-analysis of the deposited data

How the results depend on the processing

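Over 13 alternatives, 0 of the 7 genes passed an adjusted p of 0.05 in any, and the differences of Gclc, Gclm, maf-S and Eip71CD kept their direction in all. The count of probe sets past the test was 0 with the constant prior over all probe sets. It was 112 with the constant prior and the dimmest 33.3% left out, and 147 with the trended prior. The count of the 7 genes at an unadjusted p under 0.05 was 0 and became 1, maf-S, in these alternatives and with probe sets averaged per gene. With 1 array left out both counts were 0 with the constant prior. In the trended fit they were 7 to 225 probe sets and 0 to 2 genes, with maf-S without overexpression replicate 3 and both maf-S and Gclm without control replicate 3. Near 0, directions turned: the log2 difference of PHGPx was -0.0068 with quantile scaling and -0.031 to 0.11 with 1 array left out, that of Keap1 was -0.073 to 0.11 (-0.025 without overexpression replicate 2) and that of cnc -0.094 to 0.11 with 1 array left out (-0.063 without overexpression replicate 3 and -0.018 without control replicate 2), and that of cnc was -0.34 with the mean of both its probe sets. In the trended fit, too, the 7 genes did not pass with any 1 array left out (smallest adjusted p 0.189, for maf-S). The replicate block gave 0 of the 7 genes past the test, as without it, and 0 probe sets (0.461 the smallest adjusted p). Deviations of same-numbered samples correlated at -0.0225, 0.0007 and -0.0972, so no shared deviation was seen between them. These values cannot show whether same-numbered samples were reared or processed together. Among the member probe sets, signal over background limits the dimmer one of cnc, and among listed genes it limits gt, Hr3 and Fbp1, each at or below background on 1 or 2 arrays. Hr4 and LysX lay above the background guide on all arrays, but close to it in the cross. Hr4 was at 132 against a guide of 123 on overexpression replicate 3, and LysX at 142 against 113 on overexpression replicate 2.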
